A study of Homo sapiens with 6 samples.

Results

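Hypoxia-inducible factor (HIF) genes, their oxygen-dependent regulators and hypoxia-responsive genes outside glycolysis were followed in T24 cells, an established human bladder cancer line. The 39 genes were taken from a written list of names, out of 58288 gene identifiers in the deposited count table. No cut on measured values made the list, but it was chosen with earlier results of these data known. Of the 39 genes, 38 were matched by symbol, and 34 passed the filter on low counts and were tested. INSIG2-AS1 was not matched and has no value. The series comprised 3 conditions with 2 libraries each. Cells were transfected with a control siRNA (NC) or with either of a pair of siRNAs directed at the circular RNA circ235 (si-circ235-1, si-circ235-2, labelled siRNA1 and siRNA2). All libraries came from this 1 line, and no oxygen level is given for any of them. Polyadenylated RNA was sequenced without strand information, so circ235 itself, which has no poly(A) tail, was not measured. The knockdown therefore could not be checked in these counts.

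HIF is a transcription factor made of an oxygen-labile alpha subunit and a stable beta subunit. When oxygen is present, prolyl hydroxylases of the EGLN family mark the alpha subunit, the VHL ubiquitin ligase recognises the mark, and the subunit is degraded. When oxygen is low the alpha subunit persists, pairs with ARNT and binds hypoxia response elements, raising genes for vessel growth, mitophagy, matrix modification and histone demethylation. Because that control acts on the protein, mRNA levels of the subunits do not report HIF activity. In bladder tumours HIF targets such as the carbonic anhydrase CA9 are known as markers of hypoxic regions.

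The libraries held 15373992 to 19912893 counts. Levels are given as CPM, counts scaled to library size with TMM factors of 0.890 to 1.19, or as RPKM, which divides CPM by the exon length in kilobases and allows genes to be compared. Differences are log2 fold changes ± standard error from edgeR's quasi-likelihood fit over 14415 genes, with 1 mean per condition. A gene is called here where that test gave a Benjamini-Hochberg adjusted p under 0.05. The labels name the libraries biological replicates without saying whether they came from separate transfections, so the p-values measure the spread between these libraries. The T24 marker list summed to 5671 to 7481 CPM in NC, 6664 to 6678 CPM with si-circ235-1 and 4797 to 5739 CPM with si-circ235-2. Of its 8 genes, 7 were tested, and KRT19 was at or near 0. With si-circ235-2, 2 of the 7 were called lower (28.6%) and 0 higher, against 15.7% of all tested genes in each direction. With si-circ235-1, 0 were called. Fibroblast, endothelial and erythroid markers summed to at most 2.68 CPM in any library. Of 6 leukocyte markers, 5 were at 0 in every library. The sixth, CD14, had 2.82 and 2.87 CPM in NC, 10.98 and 9.94 with si-circ235-1, and 2.12 and 1.72 with si-circ235-2, and rose by 1.87 ± 0.29 log2 units (adjusted p = 0.0104) with si-circ235-1. The differentiated urothelium list summed to 25.9 to 27.5 CPM in NC, 42.4 to 50.5 CPM with si-circ235-1 and 54.2 to 54.8 CPM with si-circ235-2, with 3 of its 8 genes tested and 2 at 0 in every library. Most of that sum was PPARG, a nuclear receptor of urothelial differentiation, which rose by 0.90 ± 0.19 log2 units (adjusted p = 0.0264) with si-circ235-1 and 1.13 ± 0.19 (adjusted p = 0.0031) with si-circ235-2. The part of these markers in the results was not tested.

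One property of the fold changes bears on all results with si-circ235-2. Across 14386 genes, the log2 fold change of si-circ235-2 against NC correlated with transcript length (Spearman's rho 0.442, a description over genes, which are not independent). The same rho was 0.0409 for si-circ235-1 against NC and 0.355 between the siRNAs. The median transcript length was 3860 nucleotides for the tested members and 3354 for all tested genes. For many of the calls discussed, values are therefore also given after taking out of each library a smooth trend over length and GC content. Where no such value is printed, the fold change may still have differed in that setting. What produced the trend was not tested.

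The classical hypoxia response element is built on the letters ACGTG or GCGTG, and 30 of the 39 genes had RefSeq promoter windows (GRCh38.p14) reaching from 250 bases before to 50 bases after an annotated start. At least 1 match on either strand was found for 25 of them (83.3%), against 48.4% of all 35116 windows and 70.6% of the 10538 tested genes with a window. ACGTG alone was found for 19 (63.3%), against 21.4% of windows and 32.4% of tested genes. The letters CACGTG hold ACGTG on both strands. No window was used for VHL, VEGFA, BNIP3L, NDRG1, LOXL2, INSIG2-AS1, STC1, JMJD6 and ZNF395. Several members had more than 1 window, which gives them more chances of a match. EGLN1, KDM4B, BHLHE40, MXI1 and PPFIA4 were called and held matches that are not shown. The segments below are from other members called in at least 1 comparison, whichever the direction, and from CA9, which was at the detection floor. Each runs 5′ to 3′ on the gene's strand, with 1 match per segment in capitals (CACGT or CACGC where it lies on the opposite strand).
EPAS1 (chr2:46297278-46297306, plus strand): gggcctgccggcGCGTGcccgcccacaca
ANGPTL4 (chr19:8363909-8363937, plus strand): ggaaagaagagtCACGTctcccacggttc
BNIP3 (chr10:131982040-131982068, minus strand): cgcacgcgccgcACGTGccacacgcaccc
FAM162A (chr3:122384086-122384114, plus strand): cagcgcgtggcgCACGTcctacacgcccc
P4HA1 (chr10:73096936-73096964, minus strand): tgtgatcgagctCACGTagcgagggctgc
LOX (chr5:122078285-122078313, minus strand): gtaactttgcaaACGTGccagaaagttta
ERO1A (chr14:52695656-52695684, minus strand): cgggcgccgcggCACGTccacaggctggg
KDM3A (chr2:86441333-86441361, plus strand): ccgggaggctgtGCGTGtcttgtgagagc
ANKRD37 (chr4:185396686-185396714, plus strand): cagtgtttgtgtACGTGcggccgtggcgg
GBE1 (chr3:81761741-81761769, minus strand): tacccgctccggACGTGcgtcccggcatc
WSB1 (chr17:27294045-27294073, plus strand): ggctgtgacgtcACGTGgccgcgcccctg
CA9 (chr9:35673898-35673926, plus strand): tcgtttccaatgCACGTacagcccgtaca
Relative to the RefSeq start, the match begins at position -18 in CA9, -57 in WSB1, -133 in BNIP3 and -234 in ANGPTL4. Promoters of genes that rose with si-circ235-2 (EPAS1, LOX, KDM3A, GBE1, WSB1), of genes that fell (ANGPTL4, FAM162A) and of a gene at the detection floor (CA9) held the letters. The 5 genes whose windows held no match were ARNT, HIF1AN, EGLN3, P4HA2 and RORA, and of these ARNT and HIF1AN were called higher with si-circ235-2. A match describes the sequence and does not show that HIF binds there in these cells.

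Fewer members were called with si-circ235-1 than with si-circ235-2, a contrast that was lost once the length and GC trend was removed. Then 10 were called higher with si-circ235-1, and 6 higher and 3 lower with si-circ235-2. Over all 14415 tested genes, 1189 were called higher with si-circ235-1 in that setting, against 323 after TMM scaling alone. The all-gene share with si-circ235-2 in that setting is not given here, and the background shares below are for TMM scaling alone. Whether the lost contrast is particular to the members was not tested. After TMM scaling alone, 3 of the 34 tested members were called higher than NC with si-circ235-1 (ERO1A, ANGPTL4, STC1), 0 lower, and 31 were not called. The background over all tested genes was 2.24% called higher and 3.64% lower. An unadjusted p under 0.05 was seen for 10 of the 34 members and for 3644 of the 14415 tested genes, so that count was near its background. DESeq2 also called 0 members lower in that comparison and 7 higher. With si-circ235-2, 16 members were called higher, 2 lower, and 16 were not called, where 15.7% of all tested genes were called higher and 15.7% lower. Between the siRNAs, 13 members were higher with si-circ235-2 and 7 lower, against 21.1% and 18.6% of all tested genes. The median log2 fold change of the members was 0.20 with si-circ235-1, 0.57 with si-circ235-2 and 0.24 between the siRNAs, beside -0.03, 0.00 and 0.04 for all tested genes. Both comparisons with NC use the same 2 NC libraries, so they are not independent of each other.

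**Figure D1:**
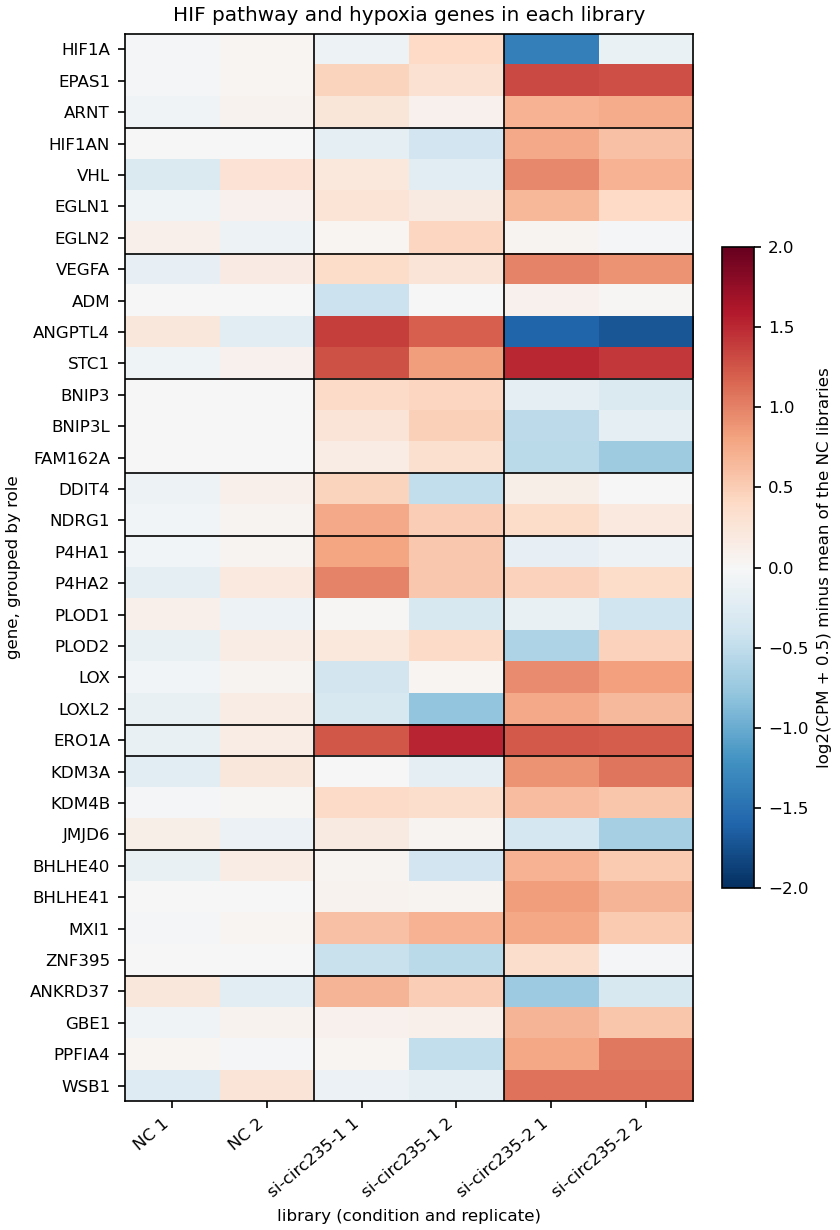
Each row is 1 of the 34 tested genes and each column 1 library, with horizontal lines between roles. Colour gives log2(CPM + 0.5) minus the mean of the 2 NC libraries, from -2 (blue) to 2 (red). The si-circ235-2 columns are red for EPAS1 and WSB1 and blue for ANGPTL4, and the 2 si-circ235-2 libraries differ visibly for HIF1A.

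**Figure D2:**
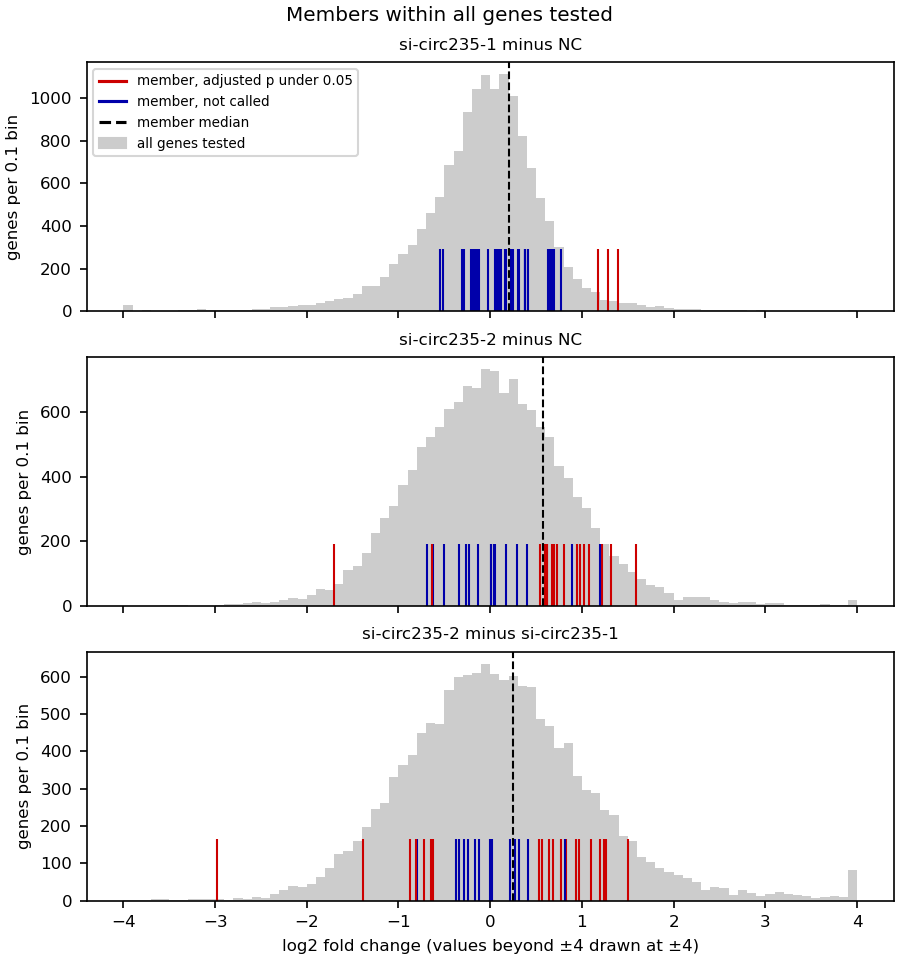
Grey bars count all 14415 tested genes by log2 fold change in steps of 0.1, ticks mark the 34 tested members (red, adjusted p under 0.05; blue, not called) and the dashed line their median. The member median lies at 0.57 with si-circ235-2, right of the peak of the bars, and ANGPTL4 stands alone at -2.98 between the siRNAs.

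Among the HIF subunits, the mRNA of EPAS1, the alternative alpha subunit also called HIF-2 alpha (chr2:46293667-46386703, plus strand), rose with si-circ235-2. EPAS1 levels were 61.3 and 64.6 CPM in NC, 85.97 and 77.6 with si-circ235-1, and 158 and 155 with si-circ235-2. Both si-circ235-2 libraries lay above all others, and both si-circ235-1 libraries lay above NC. The log2 fold change was 1.31 ± 0.17 (adjusted p = 0.00179) with si-circ235-2, a 2.49-fold rise, and 0.38 ± 0.17 (adjusted p = 0.198) with si-circ235-1. EPAS1 was also higher with si-circ235-2 than with si-circ235-1, by 0.94 ± 0.17 log2 units (adjusted p = 0.00218). The si-circ235-2 rise and the difference between the siRNAs passed the test under all 13 alternatives. With the length and GC trend removed they were smaller, at 0.90 log2 units (adjusted p = 0.00332) and 0.37 (adjusted p = 0.0311), and the si-circ235-1 value became 0.52 (adjusted p = 0.0241).

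HIF1A encodes the main alpha subunit (chr14:61695513-61748259, plus strand) and was not called in any comparison by edgeR after filtering and TMM scaling. Its levels were 226 and 239 CPM in NC, 217 and 308 with si-circ235-1, and 89.7 and 212 with si-circ235-2. The 2 si-circ235-2 libraries differed 2.37-fold from each other, the first lying below all other libraries and the second just below NC. A gap of 2-fold or more between the si-circ235-2 libraries was seen in 4.75% of tested genes. The log2 fold change was -0.62 ± 0.33 (adjusted p = 0.178) with si-circ235-2 and -0.80 ± 0.33 (adjusted p = 0.0804) between the siRNAs. Without si-circ235-2 replicate 2 these became -1.37 (adjusted p = 0.00241) and -1.55 (adjusted p = 0.000482). With all 6 libraries kept, HIF1A was called lower against NC without a filter on low counts (adjusted p = 0.0235). Between the siRNAs it was called lower under DESeq2 (adjusted p = 0.0431), without a filter (adjusted p = 0.00198), with the replicate number as a block (adjusted p = 0.0296) and with the trend removed, at -0.63 log2 units (adjusted p = 0.0337).

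ARNT encodes the stable beta subunit that pairs with either alpha subunit. Its levels were 20.6 and 22.6 CPM in NC, 25.6 and 22.8 with si-circ235-1, and 35.3 and 36.2 with si-circ235-2. Both si-circ235-2 libraries were above the other 4, and the NC and si-circ235-1 ranges lay within 20.6 to 25.6 CPM. ARNT rose by 0.73 ± 0.20 log2 units (adjusted p = 0.0201) with si-circ235-2 and was 0.56 ± 0.20 (adjusted p = 0.0448) higher than with si-circ235-1. These calls were lost with the trend removed, at 0.13 log2 units (adjusted p = 0.531) and -0.048 (adjusted p = 0.812). The first was also lost without either NC library or without si-circ235-2 replicate 2 (adjusted p = 0.0511 to 0.151), and the second without any 1 of the 6 libraries (adjusted p = 0.0593 to 0.205).

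Per length, HIF1A was the most abundant member in NC, at 45.1 ± 1.88 RPKM (SD, n = 2), and did not overlap with the next, ANGPTL4, at 30.1 ± 6.66 RPKM. EPAS1 stood at 8.62 ± 0.323 RPKM and ARNT at 3.31 ± 0.212 RPKM. The ratio of EPAS1 to HIF1A in RPKM was 0.191 and 0.190 in the NC libraries and 0.280 and 0.178 with si-circ235-1. With si-circ235-2 it was 1.24 and 0.515, above every other library, and these 2 libraries were near each other for EPAS1 and apart for HIF1A.

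**Figure D3:**
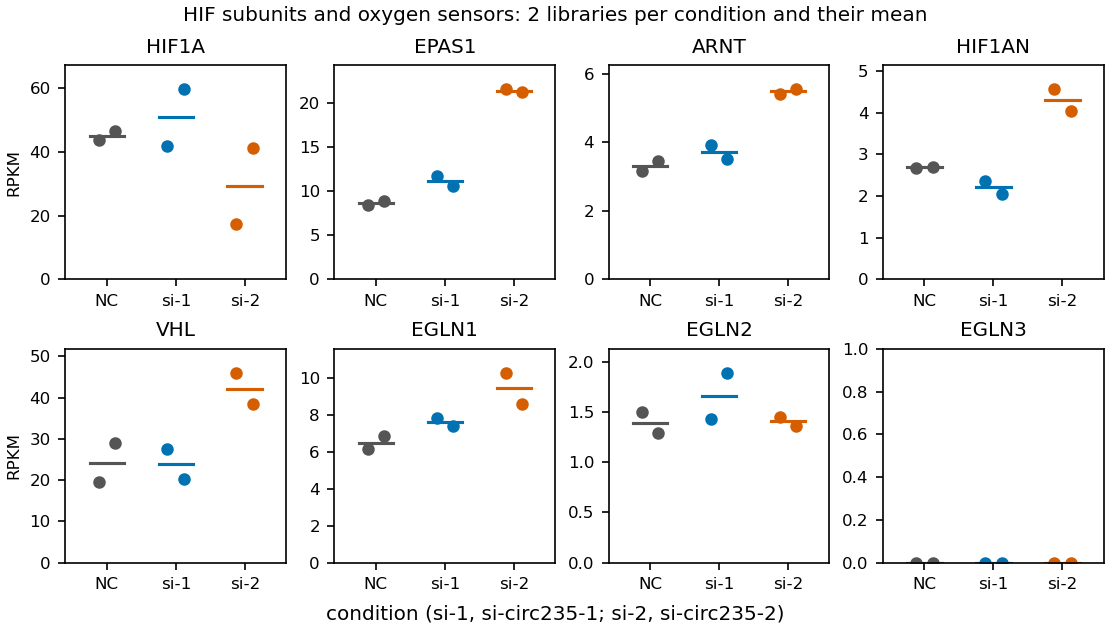
Points are single libraries (RPKM, linear axis from 0, own scale per gene) of NC, si-circ235-1 (si-1) and si-circ235-2 (si-2), and bars are means of 2. EPAS1, ARNT, HIF1AN and VHL are highest in both si-circ235-2 libraries, HIF1A splits between its si-circ235-2 libraries at 17.4 and 41.2 RPKM, and EGLN3 is at 0.

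The genes that restrain HIF when oxygen is present were mostly higher with si-circ235-2. Of the 4 tested regulators, 3 were called higher (HIF1AN, VHL, EGLN1) and EGLN2 was not called, where 15.7% of all tested genes were called higher. With si-circ235-1, 0 of the 4 were called by edgeR or DESeq2, and 0 had an unadjusted p under 0.05. In that comparison edgeR called 2.24% of all tested genes higher and 3.64% lower, and 3644 of 14415 had an unadjusted p under 0.05. HIF1AN, the asparaginyl hydroxylase that blocks coactivator binding, had 37.4 and 37.6 CPM in NC, 32.9 and 28.7 with si-circ235-1, and 63.8 and 56.5 with si-circ235-2. Its si-circ235-2 libraries were above and its si-circ235-1 libraries below NC. The log2 fold change was 0.68 ± 0.19 (adjusted p = 0.0201) with si-circ235-2 and 0.96 ± 0.19 (adjusted p = 0.00298) between the siRNAs. VHL, the substrate receptor of the ubiquitin ligase, had 82.00 and 122 CPM in NC, 116 and 84.96 with si-circ235-1, and 194 and 161 with si-circ235-2. Its NC libraries spread as widely as its si-circ235-1 libraries, and both si-circ235-2 libraries were above them. VHL rose by 0.80 ± 0.24 log2 units (adjusted p = 0.0258) with si-circ235-2 and was 0.82 ± 0.24 (adjusted p = 0.0183) higher than with si-circ235-1. EGLN1, the main prolyl hydroxylase, had 44.6 and 49.8 CPM in NC, 56.9 and 53.6 with si-circ235-1, and 74.9 and 62.6 with si-circ235-2. All 4 siRNA libraries exceeded the NC libraries, and the value was 0.54 ± 0.19 log2 units (adjusted p = 0.0463) with si-circ235-2, whereas the difference between the siRNAs was 0.31 ± 0.19 (adjusted p = 0.198).

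HIF1AN and EGLN1 have long transcripts (13011 and 7097 nucleotides), whereas that of VHL has 3737. None of the 3 rises held once the trend was removed. HIF1AN then stood at -0.17 log2 units (adjusted p = 0.495) and EGLN1 at -0.13 (adjusted p = 0.591), both below 0, and VHL at 0.37 (adjusted p = 0.143). Between the siRNAs the trend-free values were 0.17 log2 units (adjusted p = 0.431) for HIF1AN and 0.34 (adjusted p = 0.149) for VHL. HIF1AN also lost its call against NC without either NC library or without si-circ235-2 replicate 1 (adjusted p = 0.0665 to 0.125). VHL lost it without NC replicate 1 or without si-circ235-2 replicate 1 (adjusted p = 0.0898 to 0.222), and between the siRNAs without si-circ235-1 replicate 2 or without si-circ235-2 replicate 1 (adjusted p = 0.0693 to 0.161). EGLN1 lost it without a filter (adjusted p = 0.0838), with RLE size factors (adjusted p = 0.051) and without any 1 of the 6 libraries (adjusted p = 0.06 to 0.261), and without TMM factors it passed between the siRNAs (0.65, adjusted p = 0.0265). Among the prolyl hydroxylases, EGLN2 had 9.84 and 8.495 CPM in NC, 9.37 and 12.4 with si-circ235-1, and 9.56 and 8.94 with si-circ235-2, and 30.6% of its exonic bases also belong to the read-through gene RAB4B-EGLN2 on the same strand. EGLN3, a hypoxia-induced prolyl hydroxylase, had 0 counts in all 6 libraries, which allows up to 3 counts each, or 0.143 to 0.210 CPM for counting error only. EGLN1 exceeded EGLN2 in RPKM in every library, 4.10- and 5.31-fold in NC, 5.49- and 3.90-fold with si-circ235-1, and 7.09- and 6.34-fold with si-circ235-2.

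**Figure D4:**
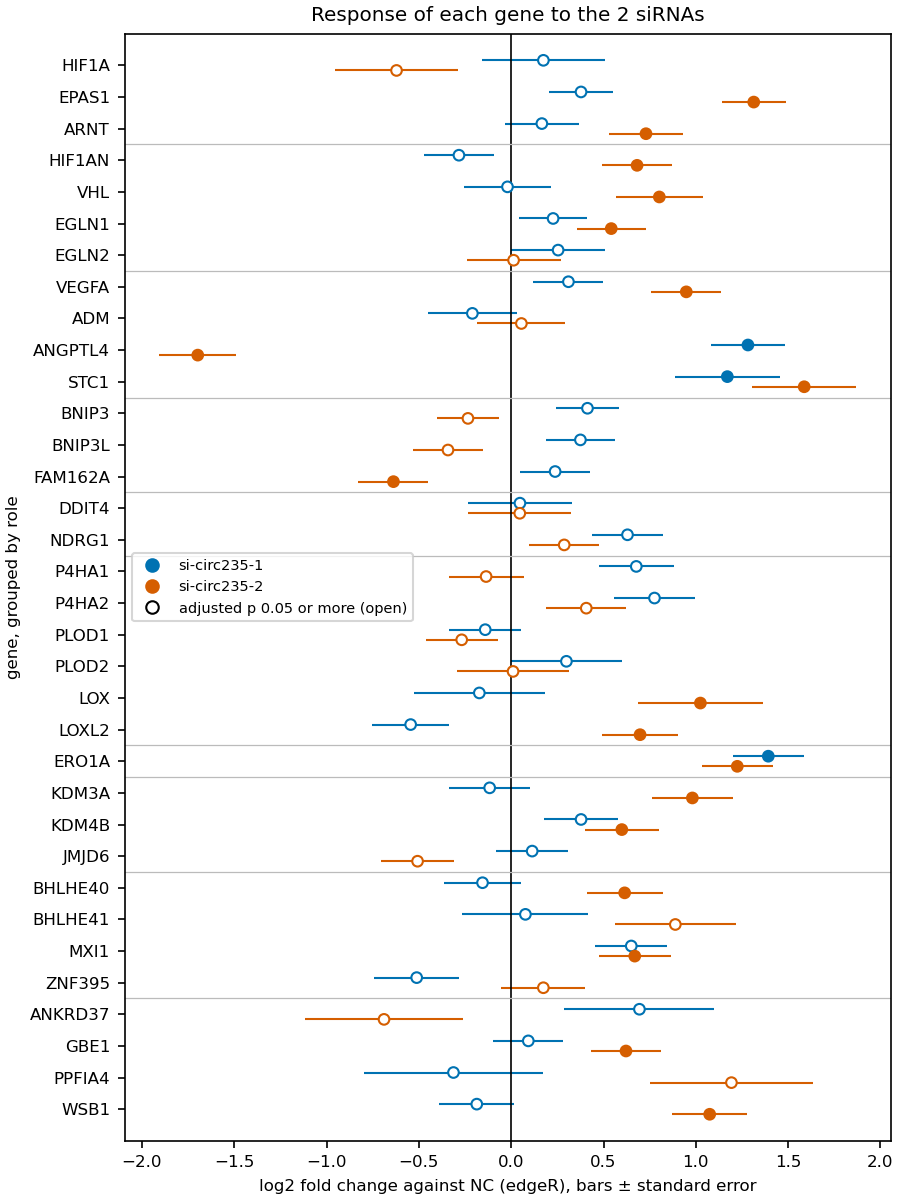
Points give the log2 fold change of each tested gene against NC for si-circ235-1 (blue) and si-circ235-2 (orange), bars ± standard error (edgeR), and filled points an adjusted p under 0.05. ERO1A and STC1 are filled on the right for both siRNAs, and ANGPTL4 is filled on the right for si-circ235-1 (1.28) and on the left for si-circ235-2 (-1.70).

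Of the tested members, the secreted factor ANGPTL4 differed most between the siRNAs. ANGPTL4 (chr19:8363289-8374373, plus strand), a secreted inhibitor of lipoprotein lipase, had 86.5 and 63.1 CPM in NC, 195 and 169 with si-circ235-1, and 23.9 and 22.2 with si-circ235-2. The 3 conditions did not overlap, with si-circ235-1 highest and si-circ235-2 lowest. ANGPTL4 rose 2.43-fold with si-circ235-1, a log2 fold change of 1.28 ± 0.20 (adjusted p = 0.0109), and fell 3.24-fold with si-circ235-2, a value of -1.70 ± 0.21 (adjusted p = 0.00179). Directly compared, it was 7.89-fold lower with si-circ235-2 than with si-circ235-1, at -2.98 ± 0.22 log2 units (adjusted p = 0.000211). Both the si-circ235-2 fall and the difference between the siRNAs passed the test under all 13 alternatives, the fall being smaller with the trend removed, at -0.97 log2 units (adjusted p = 0.00332). The si-circ235-1 rise missed the threshold without NC replicate 2 or without si-circ235-1 replicate 2 (adjusted p = 0.0546 to 0.144).

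STC1 encodes stanniocalcin, a secreted glycoprotein induced by hypoxia in many cells. Its levels were low, at 3.21 and 3.67 CPM in NC, 9.02 and 6.53 with si-circ235-1, and 10.7 and 10.04 with si-circ235-2. Every siRNA library was above both NC libraries, and the 2 siRNAs lay near each other. The log2 fold change was 1.17 ± 0.28 (adjusted p = 0.0393) with si-circ235-1 and 1.59 ± 0.28 (adjusted p = 0.00349) with si-circ235-2, and 0.42 ± 0.27 (adjusted p = 0.237) between them. The second passed the test under all 13 alternatives. The first missed the threshold with no TMM scaling (adjusted p = 0.0651) and without either NC library or without either si-circ235-1 library (adjusted p = 0.11 to 0.164).

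VEGFA, the main angiogenic growth factor and a standard HIF target, had 38.8 and 48.9 CPM in NC, 56.4 and 52.2 with si-circ235-1, and 87.3 and 81.9 with si-circ235-2. The 3 conditions were ordered NC, si-circ235-1, si-circ235-2 with no overlap. VEGFA rose by 0.95 ± 0.19 log2 units (adjusted p = 0.00523) with si-circ235-2 and was 0.64 ± 0.19 (adjusted p = 0.0206) higher than with si-circ235-1, whose own value against NC was 0.31 ± 0.19 (adjusted p = 0.339). Its longest transcript spans 12167 nucleotides, and with the trend removed the 3 values were 0.41 log2 units (adjusted p = 0.0953), -0.036 (adjusted p = 0.878) and 0.45 (adjusted p = 0.102) in that order. The call against NC was also lost without NC replicate 1 (adjusted p = 0.0664), and the call between the siRNAs without either si-circ235-1 library or without si-circ235-2 replicate 1 (adjusted p = 0.0615 to 0.125). ADM, the vasodilator peptide adrenomedullin, had 14.4 and 14.4 CPM in NC, 10.5 and 14.3 with si-circ235-1, and 15.2 and 14.6 with si-circ235-2 and was not called in any comparison.

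The mitochondrial genes BNIP3, BNIP3L and FAM162A were called lower with si-circ235-2 than with si-circ235-1 in 3 of 3 cases. Over all tested genes, 18.6% were called lower in that comparison. BNIP3 and BNIP3L encode outer-membrane receptors for mitophagy, and FAM162A a small mitochondrial membrane protein. BNIP3 had 77.9 and 77.01 CPM in NC, 101.5 and 105 with si-circ235-1, and 68.3 and 63.4 with si-circ235-2. BNIP3L had 85.4 and 84.8 CPM in NC, 102 and 118 with si-circ235-1, and 59.00 and 75.2 with si-circ235-2. In both genes the si-circ235-1 libraries were highest, the si-circ235-2 libraries lowest, and NC lay between without overlap. Against NC neither passed the test, with BNIP3 at 0.41 ± 0.17 log2 units (adjusted p = 0.159) for si-circ235-1, and BNIP3L at 0.37 ± 0.19 (adjusted p = 0.243) and -0.34 ± 0.19 (adjusted p = 0.19) for si-circ235-1 and si-circ235-2. Between the siRNAs the difference was -0.65 ± 0.17 log2 units (adjusted p = 0.0122) for BNIP3 and -0.72 ± 0.19 (adjusted p = 0.0125) for BNIP3L. FAM162A had 42.8 and 42.2 CPM in NC, 47.3 and 52.9 with si-circ235-1, and 28.97 and 25.7 with si-circ235-2, in the same order of conditions. It fell by 0.64 ± 0.19 on the log2 scale with si-circ235-2 (adjusted p = 0.0267), and between the siRNAs the difference was -0.88 ± 0.19 (adjusted p = 0.0048). With the trend removed, BNIP3 was called higher with si-circ235-1, at 0.57 log2 units (adjusted p = 0.0243).

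Without TMM factors the median of all genes shifted to 0.25 with si-circ235-2 and 0.37 between the siRNAs, and the calls of these 3 genes were lost. BNIP3 was then -0.31 (adjusted p = 0.18), BNIP3L -0.37 (adjusted p = 0.169) and FAM162A -0.54 (adjusted p = 0.054) between the siRNAs, and FAM162A -0.38 (adjusted p = 0.177) against NC. BNIP3 also missed the threshold between the siRNAs without si-circ235-1 replicate 2 or without si-circ235-2 replicate 2 (adjusted p = 0.0648 to 0.0943), and BNIP3L without si-circ235-1 replicate 2 or without si-circ235-2 replicate 1 (adjusted p = 0.0895 to 0.119). FAM162A missed it against NC without either NC library or without si-circ235-2 replicate 2 (adjusted p = 0.0782 to 0.142). The BNIP3 to BNIP3L ratio in RPKM stayed between 0.682 and 0.937 over the 6 libraries, and both extremes were si-circ235-2 libraries. HIGD1A, another hypoxia-induced gene of the mitochondrial inner membrane, was not a member, and was picked out after its values were seen. It had 98.5 and 102 CPM in NC, 154 and 192 with si-circ235-1, and 59.9 and 57.9 with si-circ235-2, with log2 fold changes of 0.78 ± 0.18 (adjusted p = 0.0341), -0.77 ± 0.18 (adjusted p = 0.0103) and, between the siRNAs, -1.55 ± 0.18 (adjusted p = 0.000514), the last at -0.75 (adjusted p = 0.00616) with the trend removed. Its call with si-circ235-1 was lost with no TMM scaling (0.70, adjusted p = 0.0584) and without either NC library or without either si-circ235-1 library (adjusted p = 0.0517 to 0.246). Its call with si-circ235-2 was lost with no TMM scaling (adjusted p = 0.0598), with the trend removed, at -0.12 log2 units (adjusted p = 0.6), and without NC replicate 1 or without si-circ235-2 replicate 2 (adjusted p = 0.0562 to 0.0588).

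The carbonic anhydrases, membrane enzymes that help acidify the surroundings of hypoxic tumour cells, were at the floor. CA12 had 0 counts in every library, and CA9 had 4 counts in all, spread over NC replicate 1 and si-circ235-2 replicate 2. Of the exonic bases of CA9, 38.5% overlap ARHGEF39 on the opposite strand, which unstranded counts cannot separate. RORA, a nuclear receptor of the clock, had 32 counts over 5 libraries and was not tested either. The growth-restraining genes were expressed and not called. DDIT4, an inhibitor of mTORC1, had 22.6 to 43.4 CPM, and both extremes were si-circ235-1 libraries. NDRG1, a stress-responsive metastasis suppressor, had 38.6 and 41.7 CPM in NC, 67.9 and 56.4 with si-circ235-1, and 52.1 and 45.8 with si-circ235-2. Both si-circ235-1 libraries of NDRG1 were highest, at 0.63 ± 0.19 log2 units (adjusted p = 0.0747) against NC. DESeq2 called that rise (0.65, adjusted p = 0.0286), as did the fit with only these 2 conditions (adjusted p = 0.0488) and the fit with the trend removed, at 0.79 log2 units (adjusted p = 0.00784). NDRG1 was then also lower with si-circ235-2 than with si-circ235-1, at -0.80 log2 units (adjusted p = 0.00157).

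Genes for collagen and matrix modification split by enzyme class. The lysyl oxidases, which cross-link collagen and elastin, rose with si-circ235-2. The collagen prolyl hydroxylases P4HA1 and P4HA2 and the lysyl hydroxylases PLOD1 and PLOD2 were not called with either siRNA against NC. LOXL2 had 114 and 141 CPM in NC, 101.7 and 73.4 with si-circ235-1, and 215 and 199 with si-circ235-2. The si-circ235-2 libraries were highest and the si-circ235-1 libraries lowest, without overlap. LOXL2 rose by 0.70 ± 0.21 log2 units (adjusted p = 0.0271) with si-circ235-2, stood at -0.54 ± 0.21 (adjusted p = 0.135) with si-circ235-1, and differed between the siRNAs by 1.24 ± 0.21 (adjusted p = 0.00155), a call kept in all 13 alternatives. LOX was low, at 2.099 and 2.32 CPM in NC, 1.61 and 2.29 with si-circ235-1, and 4.72 and 4.302 with si-circ235-2, with its si-circ235-2 libraries above the other 4. LOX rose by 1.02 ± 0.34 log2 units (adjusted p = 0.0402) with si-circ235-2 and was 1.197 ± 0.34 (adjusted p = 0.0177) higher than with si-circ235-1. LOXL2 exceeded LOX in RPKM 31.2- to 61.4-fold in the 6 libraries.

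LOXL2 lost its call against NC without NC replicate 1 or without si-circ235-2 replicate 1 (adjusted p = 0.0884 to 0.206). LOX lost it under DESeq2 (adjusted p = 0.0772), with the trend removed, at 0.80 log2 units (adjusted p = 0.108), and without either NC library or without either si-circ235-2 library (adjusted p = 0.0896 to 0.202), and lost it between the siRNAs without si-circ235-1 replicate 1 or without either si-circ235-2 library (adjusted p = 0.0528 to 0.0812). P4HA1 had 23.9 and 25.6 CPM in NC, 43.2 and 36.1 with si-circ235-1, and 21.9 and 23.1 with si-circ235-2. Its si-circ235-1 libraries were above the other 4. P4HA1 was -0.81 ± 0.20 log2 units (adjusted p = 0.00973) between the siRNAs and 0.68 ± 0.20 (adjusted p = 0.0727) with si-circ235-1 against NC. The difference between the siRNAs was lost with no TMM scaling (-0.48, adjusted p = 0.125) and without si-circ235-1 replicate 1 (adjusted p = 0.0671). P4HA2 had 42.2 and 55.9 CPM in NC, 97.4 and 70.7 with si-circ235-1, and 67.3 and 62.8 with si-circ235-2 and stood at 0.78 ± 0.22 log2 units (adjusted p = 0.0606) with si-circ235-1 and 0.41 ± 0.22 (adjusted p = 0.176) with si-circ235-2. With the trend removed, the si-circ235-1 values of P4HA1 and P4HA2 passed, at 0.64 log2 units (adjusted p = 0.0368) and 0.87 (adjusted p = 0.0116), and so they did under DESeq2 (adjusted p = 0.0242 and 0.018) and with only the 2 conditions in the fit (adjusted p = 0.0373 and 0.0195). P4HA2 also passed without a filter (adjusted p = 0.0147), and between the siRNAs with the trend removed, at -0.76 log2 units (adjusted p = 0.0052). The RPKM ratio of P4HA1 to P4HA2 was 1.56 and 1.26 in NC, 1.22 and 1.40 with si-circ235-1, and 0.897 and 1.01 with si-circ235-2, the lowest of the 6. PLOD1 had 109.8 to 155 CPM over all libraries. PLOD2 had 34.2 and 41.7 CPM in NC, 43.9 and 49.5 with si-circ235-1, and 24.4 and 51.96 with si-circ235-2, with the 2 si-circ235-2 libraries 2.13-fold apart, as the lowest and the highest of the 6.

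ERO1A (chr14:52639916-52695900, minus strand), the oxidase that drives disulfide bond formation in the endoplasmic reticulum, rose with each siRNA. Its levels were 42.6 and 52.1 CPM in NC, 112 and 137 with si-circ235-1, and 111 and 110.2 with si-circ235-2. All 4 siRNA libraries were more than 110 CPM, against at most 52.1 CPM in NC. ERO1A rose 2.63-fold with si-circ235-1, a log2 fold change of 1.39 ± 0.19 (adjusted p = 0.00747), and 2.34-fold with si-circ235-2, at 1.22 ± 0.19 (adjusted p = 0.00261). The si-circ235-2 call was kept in all 13 alternatives. The si-circ235-1 call was lost without NC replicate 1 or without si-circ235-1 replicate 2 (adjusted p = 0.0578 to 0.144). Between the siRNAs ERO1A was not called (adjusted p = 0.505).

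Of the 3 oxygenases that act on chromatin and splicing, the histone demethylases KDM3A and KDM4B rose with si-circ235-2, and JMJD6 did not. KDM3A had 23.4 and 32.3 CPM in NC, 27.3 and 24.1 with si-circ235-1, and 51.7 and 58.3 with si-circ235-2. Both si-circ235-2 libraries were above the other 4, with NC and si-circ235-1 overlapping. KDM3A rose by 0.98 ± 0.22 log2 units (adjusted p = 0.00796) with si-circ235-2 and was 1.10 ± 0.22 (adjusted p = 0.00315) higher than with si-circ235-1, a difference kept in all 13 alternatives. That difference was smaller with the trend removed, at 0.57 log2 units (adjusted p = 0.021). The call against NC was lost with the trend removed, at 0.36 log2 units (adjusted p = 0.135), and without NC replicate 1 (adjusted p = 0.0957). KDM4B had 19.5 and 19.99 CPM in NC, 26.02 and 25.3 with si-circ235-1, and 30.4 and 29.3 with si-circ235-2, with the 3 conditions ordered NC, si-circ235-1, si-circ235-2 and no overlap. It rose by 0.60 ± 0.20 log2 units (adjusted p = 0.0427) with si-circ235-2 and stood at 0.38 ± 0.20 (adjusted p = 0.272) with si-circ235-1. The si-circ235-2 call was lost with only the 2 conditions in the fit (adjusted p = 0.0588), without a filter (adjusted p = 0.101) and without any 1 of the 6 libraries (adjusted p = 0.0605 to 0.206). With the trend removed, KDM4B with si-circ235-1 passed, at 0.67 log2 units (adjusted p = 0.0281). JMJD6, a lysyl hydroxylase of splicing factors, had 58.3 and 49.9 CPM in NC, 61.00 and 56.05 with si-circ235-1, and 42.2 and 33.9 with si-circ235-2. Its si-circ235-2 libraries were lowest, at -0.51 ± 0.20 log2 units (adjusted p = 0.0717) against NC and -0.62 ± 0.20 (adjusted p = 0.0279) against si-circ235-1. With the trend removed the fall against NC passed, at -1.07 log2 units (adjusted p = 0.00461), and the difference between the siRNAs grew to -1.25 (adjusted p = 0.000909). The difference between the siRNAs was lost with no TMM scaling (-0.29, adjusted p = 0.256) and without either si-circ235-1 library or without si-circ235-2 replicate 2 (adjusted p = 0.0784 to 0.19).

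The transcription factors BHLHE40 and MXI1 rose with si-circ235-2. BHLHE40, a repressor of the circadian clock and an established HIF target, had 74.5 and 91.4 CPM in NC, 85.8 and 63.2 with si-circ235-1, and 135 and 119 with si-circ235-2. The NC and si-circ235-1 libraries overlapped, and both si-circ235-2 libraries were above them. It rose by 0.61 ± 0.21 log2 units (adjusted p = 0.0424) with si-circ235-2 and was 0.77 ± 0.21 (adjusted p = 0.0134) higher than with si-circ235-1. The latter difference of BHLHE40 was 0.40 log2 units (adjusted p = 0.0492) with the trend removed. Its paralog BHLHE41 was far lower, at 2.099 and 2.14 CPM in NC, 2.24 and 2.23 with si-circ235-1, and 4.19 and 3.68 with si-circ235-2, and its value was 0.89 ± 0.33 log2 units (adjusted p = 0.0612) with si-circ235-2 and 0.81 ± 0.33 (adjusted p = 0.07) between the siRNAs. Without TMM factors these passed (1.14, adjusted p = 0.0262, and 1.15, adjusted p = 0.0189). MXI1, an antagonist of MYC, had 26.9 and 28.7 CPM in NC, 42.2 and 45.1 with si-circ235-1, and 48.1 and 40.4 with si-circ235-2. All 4 siRNA libraries of MXI1 were above NC, and the 2 siRNAs overlapped. The log2 fold change was 0.67 ± 0.19 (adjusted p = 0.0241) with si-circ235-2 and 0.65 ± 0.19 (adjusted p = 0.0715) with si-circ235-1, the latter passing under DESeq2 (adjusted p = 0.0252), with only the 2 conditions in the fit (adjusted p = 0.0416) and with the trend removed, at 0.64 (adjusted p = 0.0237). ZNF395, a hypoxia-induced zinc finger protein, had 19.9 and 20.05 CPM in NC, 14.5 and 13.6 with si-circ235-1, and 25.5 and 19.6 with si-circ235-2. Its si-circ235-1 libraries were lowest, at -0.51 ± 0.23 log2 units (adjusted p = 0.193) against NC, and the siRNAs differed by 0.69 ± 0.23 (adjusted p = 0.0349). Of its exonic bases, 34.9% are shared with FBXO16 on the same strand.

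The si-circ235-2 rises of BHLHE40 and MXI1 were lost with the trend removed, at 0.40 log2 units (adjusted p = 0.0658) and 0.36 (adjusted p = 0.101). BHLHE40 also lost its call without NC replicate 1 or without either si-circ235-2 library (adjusted p = 0.0625 to 0.267), and between the siRNAs without si-circ235-1 replicate 2 or without si-circ235-2 replicate 1 (adjusted p = 0.0557 to 0.127). MXI1 lost its call without either NC library or without si-circ235-2 replicate 1 (adjusted p = 0.0614 to 0.156). ZNF395 lost the difference between the siRNAs with the trend removed, at 0.16 log2 units (adjusted p = 0.505), and without either NC library, either si-circ235-1 library or without si-circ235-2 replicate 1 (adjusted p = 0.0513 to 0.189).

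The remaining targets have unrelated functions. WSB1, a substrate receptor of a ubiquitin ligase, had 46.5 and 66.7 CPM in NC, 51.2 and 48.3 with si-circ235-1, and 119 and 119 with si-circ235-2. Its 2 si-circ235-2 libraries were nearly equal and above the other 4. WSB1 rose 2.11-fold with si-circ235-2, at 1.07 ± 0.20 log2 units (adjusted p = 0.00443), and was 1.26 ± 0.21 (adjusted p = 0.00134) higher than with si-circ235-1, a difference kept in all 13 alternatives. That difference was 0.92 log2 units (adjusted p = 0.00223) with the trend removed. The rise against NC was smaller with the trend removed, at 0.68 log2 units (adjusted p = 0.0156), and its call was lost without NC replicate 1 (adjusted p = 0.0534). GBE1, the glycogen branching enzyme, had 28.3 and 31.2 CPM in NC, 31.6 and 31.8 with si-circ235-1, and 47.8 and 43.7 with si-circ235-2, again with both si-circ235-2 libraries on top. It rose by 0.62 ± 0.19 log2 units (adjusted p = 0.0299) with si-circ235-2 and was 0.53 ± 0.19 (adjusted p = 0.0459) higher than with si-circ235-1. These calls were lost with the trend removed, at 0.31 log2 units (adjusted p = 0.124) and 0.22 (adjusted p = 0.221), without a filter (adjusted p = 0.0572 and 0.104), the first also without either NC library or without either si-circ235-2 library (adjusted p = 0.054 to 0.192) and the second with RLE size factors (adjusted p = 0.0612), under DESeq2 (adjusted p = 0.0513) and without any 1 of the 6 libraries (adjusted p = 0.0565 to 0.176).

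ANKRD37, an ankyrin repeat protein whose promoter window held several matches, had 2.16 and 1.47 CPM in NC, 3.15 and 2.74 with si-circ235-1, and 0.885 and 1.34 with si-circ235-2. The si-circ235-1 libraries were highest and the si-circ235-2 libraries lowest, at 0.69 ± 0.41 log2 units (adjusted p = 0.317) and -0.69 ± 0.43 (adjusted p = 0.246) against NC. The siRNAs differed by -1.38 ± 0.42 log2 units (adjusted p = 0.0228), with the trend removed by -1.02 (adjusted p = 0.0722). This call was lost with no TMM scaling (adjusted p = 0.068) and without either si-circ235-1 library or without si-circ235-2 replicate 1 (adjusted p = 0.0583 to 0.146). Of its exonic bases, 35.2% overlap UFSP2 on the opposite strand. PPFIA4, a liprin scaffold protein, had 1.18 and 1.100 CPM in NC, 1.19 and 0.6699 with si-circ235-1, and 2.301 and 2.92 with si-circ235-2, with the si-circ235-2 libraries above the rest. Its values were 1.19 ± 0.44 log2 units (adjusted p = 0.0621) with si-circ235-2 and 1.51 ± 0.45 (adjusted p = 0.0227) between the siRNAs. The latter was lost under DESeq2 (adjusted p = 0.0515), with the trend removed, at 1.07 log2 units (adjusted p = 0.0677), and without si-circ235-1 replicate 2 or without either si-circ235-2 library (adjusted p = 0.0534 to 0.164), while the former passed with only the 2 conditions in the fit (adjusted p = 0.0415) and without TMM factors (1.46, adjusted p = 0.032).

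**Figure D5:**
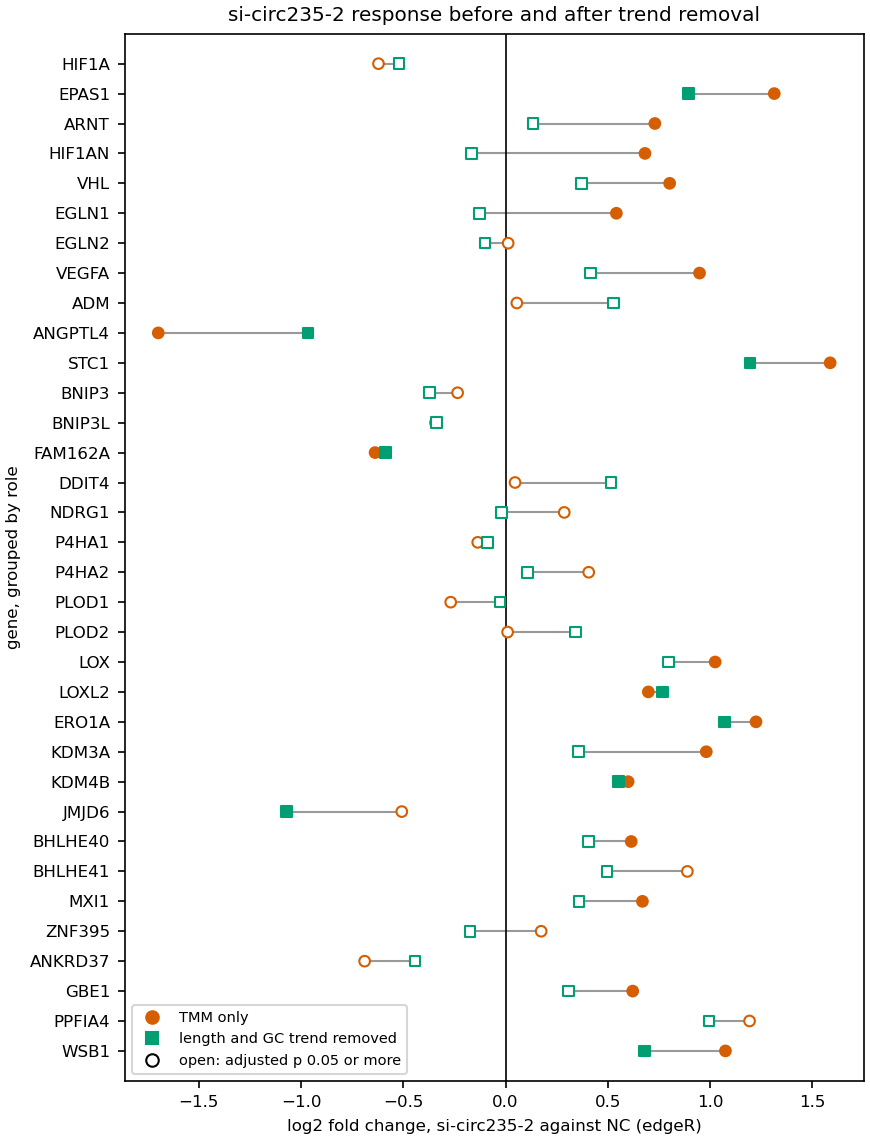
For each tested gene, the orange circle is the log2 fold change of si-circ235-2 against NC after TMM scaling and the green square the value after the length and GC trend was removed, filled where the adjusted p is under 0.05 (edgeR). EPAS1, ANGPTL4, STC1 and ERO1A stay filled, HIF1AN and EGLN1 cross 0, and 10 of the 18 called genes become open.

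Of the 18 members called with si-circ235-2 against NC, 10 were no longer called after the trend was removed (ARNT, HIF1AN, VHL, EGLN1, VEGFA, LOX, KDM3A, BHLHE40, MXI1, GBE1). The median of the members went from 0.57 to 0.32. Leaving out 1 library of a compared condition, which leaves a single library there, also lost calls. These losses were seen among all tested genes as well as among members, so they do not describe the members alone.

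A second list held 19 genes of the HIF machinery beyond the members, of which 18 were tested. With si-circ235-1, edgeR called 0 higher and 1 lower, and DESeq2 called 1 higher and 2 lower. In that comparison 8 of the 18 had an unadjusted p under 0.05 in edgeR, as did 3644 of the 14415 tested genes. With si-circ235-2, 3 were higher (16.7%) and 6 lower (33.3%), against 15.7% of all tested genes in each direction. Between the siRNAs 4 were higher (22.2%) and 8 lower (44.4%), against 21.1% and 18.6% of all tested genes, so the shares called higher were near the background. The list medians were 0.21, -0.22 and -0.28. The coactivators with histone acetyltransferase activity rose with si-circ235-2. EP300 had 24.3 and 33.5 CPM in NC, 21.6 and 19.04 with si-circ235-1, and 87.1 and 95.7 with si-circ235-2, a log2 fold change of 1.66 ± 0.21 (adjusted p = 0.00179). CREBBP had 38.05 and 44.7 CPM in NC, 30.99 and 30.5 with si-circ235-1, and 91.2 and 93.5 with si-circ235-2, a log2 fold change of 1.16 ± 0.18 (adjusted p = 0.00264). Their transcripts are long (9587 and 10803 nucleotides), and with the trend removed the values were smaller, at 1.04 log2 units (adjusted p = 0.00391) and 0.69 (adjusted p = 0.012). Both stayed called under all 13 alternatives. ARNT2, the paralog of ARNT, rose by 0.79 ± 0.23 log2 units (adjusted p = 0.0242), a call lost with the trend removed, at 0.25 (adjusted p = 0.288), and without NC replicate 1 or without si-circ235-2 replicate 2 (adjusted p = 0.0563 to 0.2).

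Among genes tied to the ubiquitin ligase that works with VHL, ELOB was called lower with si-circ235-2 and CUL2 was not called. VHL mRNA itself was called higher after TMM scaling, but not with the trend removed, at 0.37 log2 units (adjusted p = 0.143). ELOB, an elongin of the VHL ligase, had 819 and 463 CPM in NC, 732 and 1065 with si-circ235-1, and 214 and 173 with si-circ235-2. With si-circ235-2 it fell 3.31-fold, at -1.73 ± 0.30 log2 units (adjusted p = 0.0033), a call kept in all 13 alternatives. RACK1, a scaffold that can carry HIF1A protein to degradation, had a value of -1.13 ± 0.25 log2 units (adjusted p = 0.00822), and was not called without NC replicate 1 (adjusted p = 0.088). ELOC, RBX1, NEDD8 and CUL2 were picked out after their values were seen, so they do not show a fall of the ligase as a whole. ELOC stood at -0.66 ± 0.20 log2 units (adjusted p = 0.0321), RBX1 at -0.92 ± 0.24 (adjusted p = 0.0152) and NEDD8 at -1.05 ± 0.22 (adjusted p = 0.00677), and CUL2 at -0.11 ± 0.23 (adjusted p = 0.751) was not called. ELOC lost its call with no TMM scaling (-0.39, adjusted p = 0.147) and without NC replicate 1 or without either si-circ235-2 library (adjusted p = 0.0782 to 0.205). RBX1 lost it without NC replicate 1 or without si-circ235-2 replicate 2 (adjusted p = 0.0698 to 0.135), and NEDD8 without NC replicate 1 (adjusted p = 0.0712). ELOB has a transcript of 997 nucleotides, and with the trend removed it stayed called, at -0.94 log2 units (adjusted p = 0.0141), and was called higher with si-circ235-1, at 0.75 (adjusted p = 0.0455).

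The CITED proteins compete with HIF for coactivators. CITED2 had 72.9 and 85.01 CPM in NC, 36.3 and 35.5 with si-circ235-1, and 97.2 and 82.9 with si-circ235-2, and its si-circ235-1 libraries were below the other 4. It fell 2.200-fold with si-circ235-1, at -1.14 ± 0.19 log2 units (adjusted p = 0.0119), a call lost without NC replicate 2 or without si-circ235-1 replicate 2 (adjusted p = 0.07 to 0.159). CITED4 had 1584 and 892 CPM in NC, 582 and 633 with si-circ235-1, and 509 and 380.0 with si-circ235-2. The 2 NC libraries of CITED4 were far apart and all 4 siRNA libraries lower, at -1.03 ± 0.28 log2 units (adjusted p = 0.0573) with si-circ235-1 and -1.48 ± 0.29 (adjusted p = 0.00464) with si-circ235-2. The si-circ235-1 fall passed without TMM factors (adjusted p = 0.0262), under DESeq2 (adjusted p = 0.00778), without a filter (adjusted p = 0.000602), with only the 2 conditions in the fit (adjusted p = 0.0091), with the trend removed, at -0.86 log2 units (adjusted p = 0.00667), and without either si-circ235-2 library (adjusted p = 0.0134 to 0.0156). With the trend removed the si-circ235-2 value was -0.12 log2 units (adjusted p = 0.539), and CITED4 was called higher with si-circ235-2 than with si-circ235-1, at 0.74 (adjusted p = 0.00265). The si-circ235-2 call was also lost without NC replicate 1 (adjusted p = 0.0525).

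The last list held 39 further hypoxia-responsive genes, of which 36 were tested. With si-circ235-1, 5 were called higher (13.9%) and 1 lower (2.78%), against 2.24% and 3.64% of all tested genes. With si-circ235-2, 13 were higher (36.1%) and 5 lower (13.9%), against 15.7% in each direction. Between the siRNAs 12 were higher (33.3%) and 7 lower (19.4%), against 21.1% and 18.6%, so the shares called lower were near the background with si-circ235-2 and between the siRNAs. The list medians were 0.18, 0.36 and 0.13. PLAUR, the urokinase receptor, had 40.5 and 39.7 CPM in NC, 123 and 117 with si-circ235-1, and 52.3 and 41.1 with si-circ235-2 and rose 2.99-fold with si-circ235-1, at 1.58 ± 0.19 log2 units (adjusted p = 0.00593). RRAGD, a GTPase of the mTORC1 pathway, rose with each siRNA, by 1.35 ± 0.19 log2 units (adjusted p = 0.00747) and 0.89 ± 0.19 (adjusted p = 0.00661). PGF, a growth factor related to VEGFA, rose by 1.07 ± 0.24 log2 units (adjusted p = 0.0297) with si-circ235-1, and PDGFB, a platelet-derived growth factor, stood at -0.81 ± 0.17 (adjusted p = 0.0276). The si-circ235-1 calls were lost for PLAUR without si-circ235-1 replicate 2 (adjusted p = 0.13) and for RRAGD without NC replicate 1 or without si-circ235-1 replicate 2 (adjusted p = 0.0588 to 0.144). PGF lost its call without either NC library or without either si-circ235-1 library (adjusted p = 0.0696 to 0.209), and PDGFB without either NC library or without either si-circ235-1 library (adjusted p = 0.0718 to 0.228). PDGFB was nearer to 0 with the trend removed, at -0.47 log2 units (adjusted p = 0.04).

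With si-circ235-2, IGFBP3, which binds insulin-like growth factors, rose most in this list, from 1.31 and 0.978 CPM in NC to 5.43 and 5.02 CPM, at 2.19 ± 0.38 log2 units (adjusted p = 0.00327). The histone demethylases KDM5B and KDM4C also rose, by 1.21 ± 0.22 log2 units (adjusted p = 0.00381) and 1.17 ± 0.31 (adjusted p = 0.0177). The falls were led by NARF, at -1.35 ± 0.22 log2 units (adjusted p = 0.00275), EFNA3, an ephrin ligand, at -1.002 ± 0.30 (adjusted p = 0.0285), and TPBG, a trophoblast glycoprotein, at -0.91 ± 0.20 (adjusted p = 0.00731). IGFBP3, NARF and TPBG were kept in all 13 alternatives. KDM5B lost its call with the trend removed, at 0.44 log2 units (adjusted p = 0.0566), and without NC replicate 1 (adjusted p = 0.0513). KDM4C lost it with the trend removed, at 0.60 log2 units (adjusted p = 0.139), and without NC replicate 1 or without si-circ235-2 replicate 1 (adjusted p = 0.052 to 0.127). RRAGD lost its si-circ235-2 call with the trend removed, at 0.47 log2 units (adjusted p = 0.0657), and without NC replicate 1 (adjusted p = 0.0659). EFNA3 lost it with no TMM scaling (-0.73, adjusted p = 0.0901), with the trend removed, at -0.34 log2 units (adjusted p = 0.351), and without NC replicate 1 or without either si-circ235-2 library (adjusted p = 0.0841 to 0.218).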

How the data were processed

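RNA of T24 cells was enriched with oligo dT beads and sequenced unstranded. The authors deposited read counts per gene as whole numbers without normalization. FastQC, cutadapt, STAR and hg38 are named in the submitters' processing notes, with no versions, and the counting tool is not given in the sources used here. Unstranded counts cannot separate overlapping genes on opposite strands. The libraries held 15373992 to 19912893 counts, and replicates differed by more than sampling noise (chi-square per degree of freedom 33.3, 26.2 and 21.7 in NC, si-circ235-1 and si-circ235-2).

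Groups followed the sample labels, and each column was matched to a library by name. GENCODE release 29 (GRCh38) held 99.5% of the identifiers and gave positions, exon lengths and GC content. The test was edgeR's (4.0.16, under R 4.3.3) quasi-likelihood test, after filterByExpr on the conditions had kept 14415 genes and TMM factors had been set. P-values were adjusted by Benjamini and Hochberg's method, with a threshold of 0.05. Standard errors are the absolute log2 fold change divided by the square root of F. On counts simulated for 14415 genes, with 200 changed by 1 on the log2 scale, 25.6% were recovered for si-circ235-1, 31.5% for si-circ235-2 (each against NC) and 26.7% between the siRNAs. With a change of 2 it was 83.9%, 85.9% and 86.7%. In the data, 2270 genes were called higher and 2260 lower with si-circ235-2, far more than the 200 changed in the simulation. The adjusted p depends on that number, so these percentages do not give the recovery in the real comparisons.

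The members, the further lists and the roles were chosen with earlier results of these data known. Named by rule were all members called in any comparison, all subunits and regulators, the paralog pairs and, of each further list, up to 3 called genes per direction and siRNA with the largest change. The alternatives were DESeq2 1.42.0, RLE size factors, no TMM factors, no filter, only the 2 conditions compared, a block for the replicate number, leaving out each library, and removal of a spline trend (5 degrees of freedom) over transcript length and GC content.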

Additional observations from a re-analysis of the deposited data

Results flagged for a closer look

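The 2 siRNAs were directed at the same circular RNA, and 20 of the 34 tested members differed between them in the direct comparison of si-circ235-2 with si-circ235-1 (edgeR, adjusted p under 0.05), which tests the difference itself. Over all tested genes, 21.1% were higher and 18.6% lower in that comparison. Values are log2 fold changes of si-circ235-2 against si-circ235-1. Among subunits and regulators these were 0.94 for EPAS1, 0.56 for ARNT, 0.96 for HIF1AN and 0.82 for VHL. Among secreted and matrix genes they were 0.64 for VEGFA, -2.98 for ANGPTL4, -0.81 for P4HA1, 1.197 for LOX and 1.24 for LOXL2. The mitochondrial genes stood at -0.65 for BNIP3, -0.72 for BNIP3L and -0.88 for FAM162A. KDM3A was at 1.10, JMJD6 at -0.62, BHLHE40 at 0.77 and ZNF395 at 0.69. The others were ANKRD37 at -1.38, GBE1 at 0.53, PPFIA4 at 1.51 and WSB1 at 1.26. With the length and GC trend removed 8 of these 20 calls were lost. Leaving out 1 library of either siRNA also lost calls, among all tested genes as well as among members. The paper reports from qRT-PCR that the siRNAs differed in knockdown efficiency in T24 cells. The more efficient siRNA was si-circ235-1. These counts do not measure circ235, so the amounts of knockdown could not be compared in these libraries. Whether that difference bears on the calls, and whether either siRNA acted on other transcripts, was not tested.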

How the results depend on the processing

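Over the gene values given, 1390 of the comparisons with an alternative kept direction and side of the threshold, 181 lost the call, 47 gained one and 7 changed sign. Among members, EPAS1, ANGPTL4, STC1 and ERO1A kept their si-circ235-2 calls in all 13 alternatives, as did EPAS1, ANGPTL4, LOXL2, KDM3A and WSB1 between the siRNAs, and 0 of the 3 si-circ235-1 calls did. Members called higher with si-circ235-1 went from 3 to 7 with DESeq2, 7 with only the 2 conditions fitted and 10 after removal of the length and GC trend, and those with si-circ235-2 from 16 to 6 with the trend removed. Members lower with si-circ235-2 went from 2 to 3 with the trend removed, 3 without a filter and 1 without TMM factors. Between the siRNAs, 13 higher became 6 with the trend removed and 7 lower became 1 without TMM factors. The member medians without TMM factors were 0.11, 0.82 and 0.58 (all genes -0.11, 0.25 and 0.37), and with the trend removed 0.32 with si-circ235-2 and -0.042 between the siRNAs.

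Leaving out 1 library gave 0 to 5 members higher with si-circ235-1, 3 to 15 higher and 1 to 2 lower with si-circ235-2, and 5 to 10 higher and 3 to 7 lower between the siRNAs. The lowest counts came without si-circ235-1 replicate 2 for si-circ235-1 and without NC replicate 1 for si-circ235-2. An arm with 1 library was assumed to vary like the others. Over all genes, the 323 higher with si-circ235-1 became 179 without TMM factors, 714 with DESeq2, 611 without a filter, 704 with 2 conditions and 1189 with the trend removed, and the 524 lower became 805, 1067 and 938 with DESeq2, no filter and 2 conditions. Without TMM factors the genes lower with si-circ235-2 went from 2260 to 1294, and between the siRNAs from 2678 to 1496. With 1 library left out, the all-gene counts ran 0 to 573 higher and 0 to 909 lower for si-circ235-1, 432 to 2168 and 337 to 2126 for si-circ235-2, and 1491 to 2923 and 1326 to 2729 between the siRNAs.

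Signs changed with the trend removed for HIF1AN (-0.17) and EGLN1 (-0.13) with si-circ235-2, and between the siRNAs for ARNT (-0.048), EGLN1 (-0.28), VEGFA (-0.036) and CITED4 (0.74), while PPFIA4 with si-circ235-1 ran from -0.76 to 0.063 with 1 library left out. The cause was not tested. Replicate numbers in the labels do not mark a shared day or culture. Deviations of same-numbered libraries from their group means correlated at -0.0943 (NC and si-circ235-1), 0.149 (NC and si-circ235-2) and 0.139 (the siRNAs). With the replicate number as a block, 3 members were higher with si-circ235-1, 16 higher and 3 lower with si-circ235-2, and 13 higher and 8 lower between the siRNAs. The block made JMJD6 with si-circ235-2 (adjusted p = 0.0389) and HIF1A between the siRNAs (adjusted p = 0.0296) pass. CA9, CA12, RORA and EGLN3 had too few counts to be tested at this depth. The standard errors of LOX, BHLHE41, PPFIA4 and ANKRD37, under 5 CPM in every library, ran from 0.33 to 0.49 log2 units.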
